A study of Cucumis melo with 8 samples.

Results

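The miR156 family of melon was represented by the 10 miRNA names cme-miR156a, cme-miR156b, cme-miR156c, cme-miR156d, cme-miR156e, cme-miR156f, cme-miR156g, cme-miR156h, cme-miR156i and cme-miR156j in the deposited expression table. Members were chosen by name, and each mature sequence was counted once. The 10 names carried 6 of the 71 distinct sequences among the 116 names of the table, because cme-miR156a, c, d and i shared a sequence and so did cme-miR156g and h. Small RNA was sequenced from the flesh mesocarp of ‘Flavor No. 4’, a Hami melon, with fruits taken 10, 20, 30 and 40 days after flowering (DAF), and neither a treatment nor a genetic alteration was part of the design. Each stage had 1 library in each of 2 batches. RNA of several fruits was mixed for a first-batch library and read single-end on the Illumina GAIIx, whereas a second-batch library came from a single fruit and was read pair-end on the Illumina NextSeq. Season, sequencer and pooling therefore changed together and cannot be told apart. Here 10 and 20DAF are the early stages and 30 and 40DAF the ripening stages. The table holds miRNAs alone, so the tissue label could not be checked against marker genes.

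In flowering plants, miR156 guides the cleavage and translational repression of mRNAs that encode SQUAMOSA PROMOTER BINDING PROTEIN-LIKE (SPL) transcription factors. In Arabidopsis the family is abundant in juvenile shoots and declines as the plant ages, and the SPL factors that are then released activate transcription of miR172, which in turn represses AP2-type factors. In tomato, an SPL gene that carries a miR156 site, Colorless non-ripening, is needed for normal fruit ripening.

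The 6 mature sequences are printed from the deposited table, 5′ to 3′, with the seed (bases 2 to 8) in capitals, because several members differed by a single base.
cme-miR156a/c/d/i: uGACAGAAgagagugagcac
cme-miR156g/h: uGACAGAAgagagggagcac
cme-miR156f: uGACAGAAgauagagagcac
cme-miR156b: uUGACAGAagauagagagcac
cme-miR156e: uUGACAGAagauagagggcac
cme-miR156j: gUUGACAGaagagagugagcac

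The sequences were 20 bases long in cme-miR156a/c/d/i, cme-miR156f and cme-miR156g/h, 21 in cme-miR156b and cme-miR156e, and 22 in cme-miR156j. All 6 ended in the same frame, and 17 of the last 20 bases were identical. Counted from 1 at the 5′ end of these shared 20 bases, the variable positions were 11, 14 and 16. cme-miR156g/h differed from cme-miR156a/c/d/i by U14G alone, and cme-miR156e differed from cme-miR156b by A16G alone. cme-miR156b, cme-miR156e and cme-miR156f all carried G11U and U14A relative to cme-miR156a/c/d/i. The whole of cme-miR156f lay within cme-miR156b, which has 1 more base at its 5′ end, and the whole of cme-miR156a/c/d/i lay within cme-miR156j. The extra 5′ bases moved the seed window, so that the family held 3 seeds, GACAGAA in 3 sequences, UGACAGA in 2 and UUGACAG in cme-miR156j. None of the other sequences of the table held any of them.

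The precursors listed in the study's supplementary tables numbered 10, with lengths of 87 to 182 bases, and the mature sequence lay on the 5′ arm of each. Since 5 precursors (a, c, d, i and j) contained the cme-miR156a/c/d/i sequence, its level could not be assigned to a locus. The cme-miR156f sequence was contained in the precursors b and f, and the cme-miR156g/h sequence in g and h. Their levels could not be assigned to a locus either. Precursors b and f are shown with the annotated mature sequence in capitals, as both could yield the shorter sequence. Precursor g is shown beside them, as the cme-miR156g/h sequence had the largest fold between 40DAF and 10DAF among the members.
cme-MIR156b: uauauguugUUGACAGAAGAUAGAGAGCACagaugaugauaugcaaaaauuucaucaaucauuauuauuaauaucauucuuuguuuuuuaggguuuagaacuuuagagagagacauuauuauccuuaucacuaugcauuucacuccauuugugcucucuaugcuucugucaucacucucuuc
cme-MIR156f: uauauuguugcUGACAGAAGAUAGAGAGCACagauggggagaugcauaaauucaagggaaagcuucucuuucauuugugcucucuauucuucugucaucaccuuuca
cme-MIR156g: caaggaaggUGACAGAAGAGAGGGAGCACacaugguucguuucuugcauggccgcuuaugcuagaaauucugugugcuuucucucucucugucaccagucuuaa

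Levels are in TPM, which in this table are reads scaled to a common library total, with no division by length. A single read was worth a fixed step of TPM in each library, from which whole reads were recovered. The step also gives the total by which the values had been divided. This total ran from 233131 to 410953 reads in the first batch, and from 105077 to 985349 in the second, with that of the 30DAF library of the second batch the smallest. Which reads it includes is not given in the sources used here, so it is the depth behind the TPM values and not the size of the sequenced library. A value of 3 reads, taken as the floor, stood at 7.30 to 12.9 TPM in first-batch libraries and at 3.04 to 28.6 TPM in those of the second batch. Intervals below are 95% exact Poisson intervals for levels and 95% Clopper-Pearson intervals for shares, and they cover counting error only.

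In TPM, the summed level of the family was higher at each later stage of fruit development in each batch. The family total was 241 TPM (190 to 302) at 10DAF, 416 TPM (353 to 489) at 20DAF, 606 TPM (533 to 686) at 30DAF and 1883 TPM (1711 to 2068) at 40DAF in the first batch. In the second batch it was 94.3 TPM (71.4 to 122), 258 TPM (227 to 292), 590 TPM (452 to 756) and 1193 TPM (1016 to 1393) at the same stages. Each stage stood above the stage before it in both batches, with no overlap of the intervals, and the batches stood closest at 30DAF. A total that was higher at every step in both batches was shared by 2 of the 30 families of the table, miR156 and miR164.

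**Figure D1:**
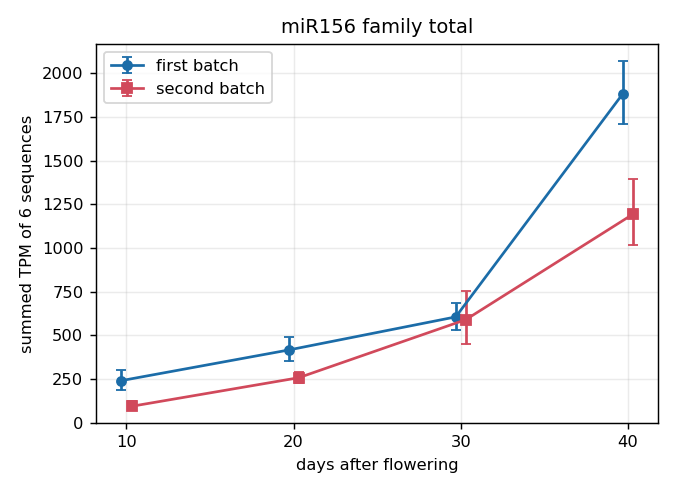
Summed TPM of the 6 miR156 sequences (y axis, linear) against days after flowering, by batch, with 95% Poisson intervals of the summed reads. In both batches the 40DAF library was the highest, at 1883 and 1193 TPM.

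The mean of the 4 ripening libraries was 1068 ± 612 TPM (SD, n = 4) and that of the 4 early libraries 253 ± 132 TPM, a fold of 4.23. The fold was 3.78 within the first batch and 5.07 within the second. It was 1.95 when the libraries were scaled on the sequences outside the dominant miR159, miR319 and miR396 families. Between 30 and 40DAF the total was 3.11-fold higher in the first batch and 2.02-fold higher in the second. The family nevertheless stayed a small part of the miRNA pool, at 0.0213% to 0.239% of the summed TPM of the distinct sequences. By mean level it ranked 7 of 30 families.

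cme-miR156b was the most abundant member by mean level, at 252 TPM over the 8 libraries. It was at 95.3, 214, 200 and 583 TPM at 10, 20, 30 and 40DAF in the first batch. In the second batch it was at 46.3, 177, 324 and 378 TPM. The 10DAF library was the lowest and the 40DAF library the highest in each batch, while the early and ripening groups overlapped because 20DAF exceeded 30DAF in the first batch. The batches differed most in the last step. From 30 to 40DAF the level was 2.92-fold higher in the first batch and 1.17-fold higher in the second, where the intervals of the 2 libraries (224 to 452 and 281 to 497 TPM) overlapped.

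cme-miR156j, the longest of the 6 sequences, was the next most abundant at a mean of 195 TPM. Its levels at the 4 stages were 79.4, 117, 241 and 583 TPM in first-batch libraries, against 24.8, 43.6, 133 and 341 TPM in those of the second batch. Every ripening library lay above every early library, and the level was higher at each later stage in both batches. At 40DAF of the first batch cme-miR156j and cme-miR156b were counted equally, at 136 reads each.

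cme-miR156a/c/d/i, the sequence listed under the most names, showed the same order of stages. First-batch libraries held 47.7, 66.6, 112 and 214 TPM from 10 to 40DAF, and second-batch libraries held 8.27, 21.3, 95.2 and 156 TPM. The groups did not overlap, and the early libraries of the second batch were lower than those of the first, the 10DAF library there resting on 5 reads. The level at 40DAF was 4.50-fold that at 10DAF in the first batch and 18.8-fold in the second.

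cme-miR156g/h was close to the floor until 30DAF and then far above it. It was at 6.35, 11.1, 24.3 and 352 TPM in the first batch, from 2, 4, 10 and 82 reads. In the second batch it was at 3.31, 4.06, 9.52 and 170 TPM, from 2, 4, 1 and 23 reads. Both 40DAF libraries stood apart from all others. The 30DAF library of the second batch, with a single read, overlapped the early libraries, so the order of its first 3 stages was not detectable at this depth. Against the floor at 10DAF, the mean level at 40DAF was at least 36.0-fold higher.

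cme-miR156e followed a similar course at a lower level. The first batch gave 9.53, 5.55, 19.5 and 129 TPM from 10 to 40DAF, the second batch 6.62, 5.07, 19.0 and 111 TPM. The groups did not overlap, the 40DAF libraries being the highest and the 20DAF libraries the lowest in each batch. The early libraries and the 30DAF library of the second batch held only 2 to 5 reads each.

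cme-miR156f was the least abundant member, at a mean of 11.97 TPM and with at most 7 reads in any library. Its levels were 3.18, 2.78, 9.73 and 21.5 TPM from 10 to 40DAF of the first batch, against 4.96, 7.10, 9.52 and 37.1 TPM in the second. The groups did not overlap in TPM, but 4 of the 8 values were at or under the floor and the 30DAF value of the second batch was a single read.

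**Figure D2:**
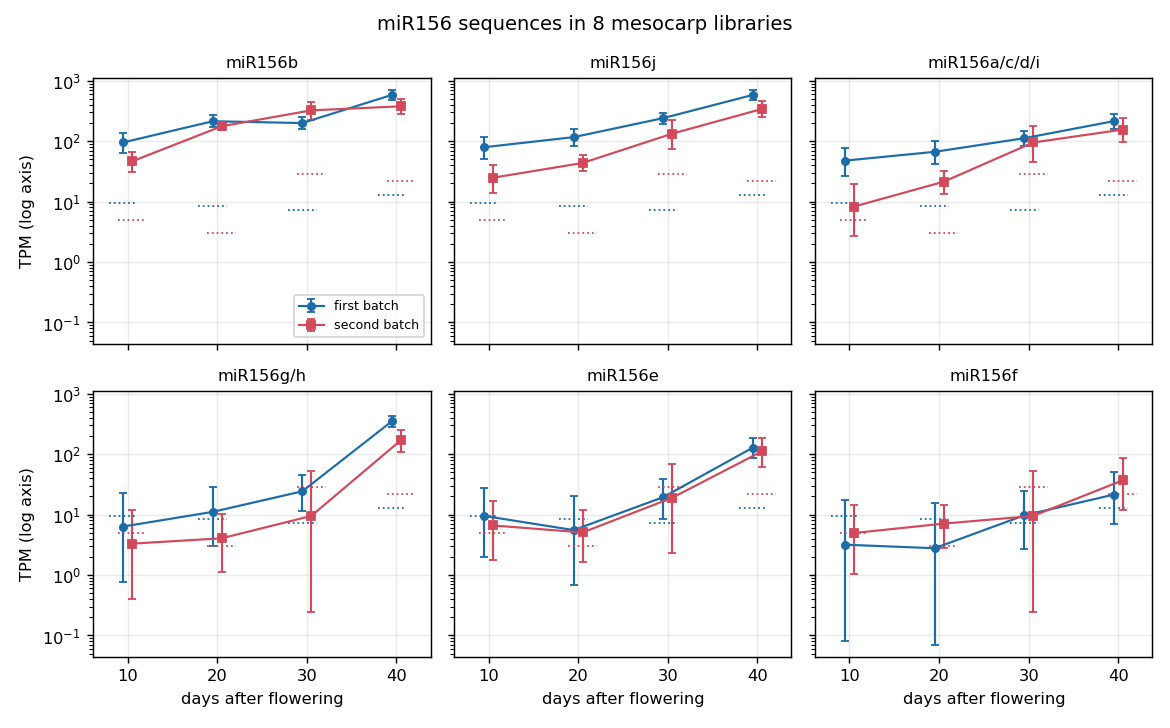
TPM of each miR156 sequence (log axis) against days after flowering, by batch, with 95% Poisson intervals and, as short dotted lines, the level of 3 reads in each library. miR156g/h reached 352 and 170 TPM at 40DAF and stayed at or under 24.3 TPM in the other libraries.

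In order of mean level the members were cme-miR156b, cme-miR156j, cme-miR156a/c/d/i, cme-miR156g/h, cme-miR156e and cme-miR156f. The mean of each member differed from that of the next by less than the larger of their SDs over the 8 libraries. Within libraries, cme-miR156b was above cme-miR156j without overlap of the counting intervals in 3 of 8, and cme-miR156j above cme-miR156a/c/d/i in 3 of 8. cme-miR156a/c/d/i was above cme-miR156g/h in this way in 4 of 8. cme-miR156g/h was so above cme-miR156e, and cme-miR156e above cme-miR156f, in 1 library, 40DAF of the first batch.

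The makeup of the family was not the same at every stage. cme-miR156b took 68.5% (62.4% to 74.2%) of the family reads at 20DAF of the second batch and 31.7% (24.6% to 39.5%) at 40DAF there. In the first batch its share was 51.3% (43.0% to 59.6%) at 20DAF and 31.0% (26.7% to 35.5%) at 40DAF. The share of cme-miR156g/h was 18.7% (15.1% to 22.6%) at 40DAF of the first batch and 14.3% (9.28% to 20.7%) at 40DAF of the second. Its share in the other 6 libraries was at most 4.02%. cme-miR156e took 6.83% (4.66% to 9.61%) and 9.32% (5.31% to 14.9%) of the reads at 40DAF of the first and second batch. At 10DAF it took 3.95% (0.822% to 11.1%) and 7.02% (1.95% to 17.0%), which overlapped the shares at 40DAF, and at 20DAF 1.33% (0.162% to 4.73%) and 1.97% (0.642% to 4.53%).

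**Figure D3:**
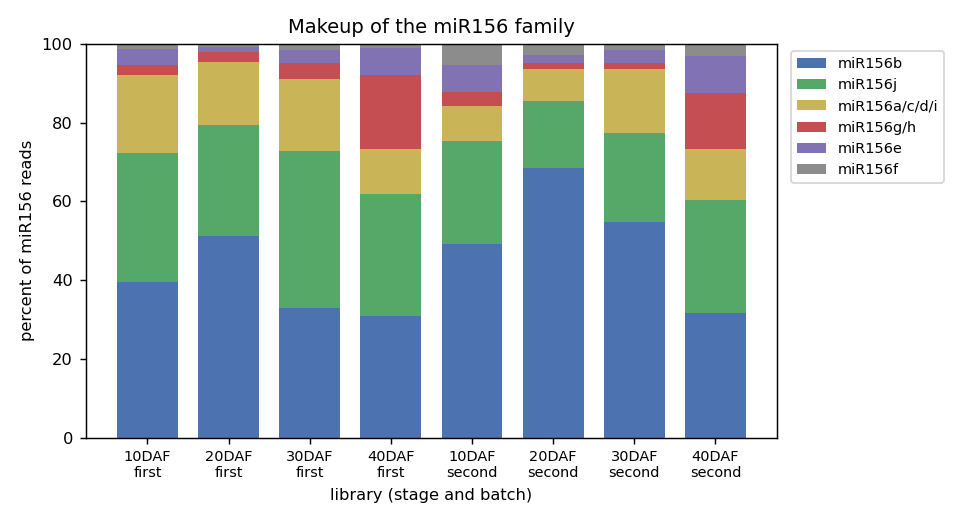
Share of each sequence in the miR156 reads (y axis, percent) of every library, ordered by batch and stage. The miR156g/h segment took 18.7% and 14.3% at 40DAF and at most 4.02% elsewhere.

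The members that differ by a single base were also set against each other within libraries, where depth is shared. cme-miR156g/h had 0.133, 0.167, 0.217 and 1.64 reads per read of cme-miR156a/c/d/i at 10, 20, 30 and 40DAF of the first batch. The ratio was 0.400, 0.190, 0.10 and 1.10 in the second batch. Only at 40DAF did cme-miR156g/h outnumber cme-miR156a/c/d/i, by 82 to 50 reads in the first batch and 23 to 21 in the second. The counting intervals of the 2 sequences overlapped in both of these libraries. cme-miR156e had 0.10, 0.0260, 0.0976 and 0.221 reads per read of cme-miR156b from 10 to 40DAF of the first batch. Second-batch libraries gave 0.143, 0.0287, 0.0588 and 0.294. This ratio was lowest at 20DAF and highest at 40DAF in both batches, with 10DAF between them. At 10 and 20DAF it rested on 3 and 2 reads of cme-miR156e in the first batch, and on 4 and 5 in the second. The intervals of the cme-miR156e share at these 2 stages overlapped in both batches, so their order was not resolved at this depth. Because the reads were matched with 1 mismatch allowed, reads of one sequence of such a pair could have been counted under the other, and the part of this in the levels was not tested.

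**Figure D4:**
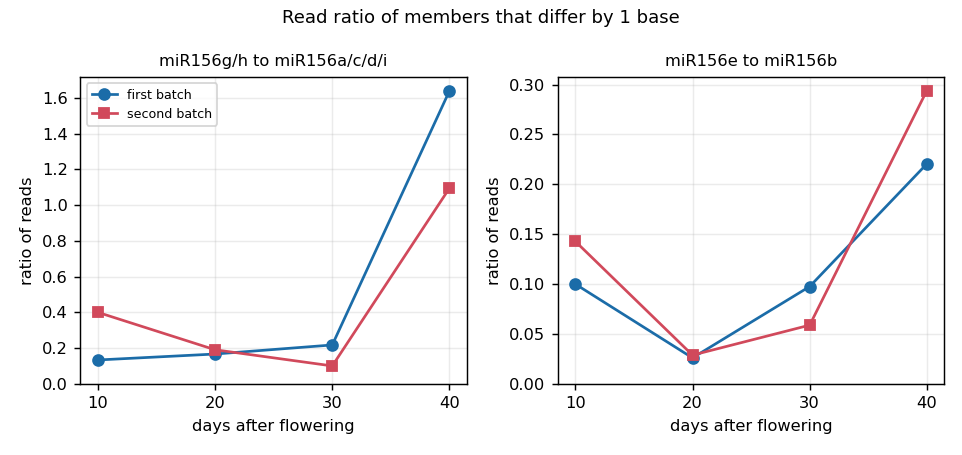
Ratio of reads (linear axes from 0) of miR156g/h to miR156a/c/d/i and of miR156e to miR156b against days after flowering, by batch. The first ratio was 1.64 and 1.10 at 40DAF and at most 0.400 at the other stages.

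The ratio of cme-miR156g/h to cme-miR156b, on a log2 scale with 5 TPM added to both, averaged -2.29 ± 1.73 in ripening and -3.46 ± 0.74 in early libraries (SD, n = 4 each). The difference of 1.18 did not exceed the spread between libraries (two-sided exact permutation test over 70 assignments, p = 0.286). Splitting the stages within each batch gave an exact p of 0.278. The difference was 0.66 (exact p = 0.571) without the first-batch 40DAF library, 0.79 (exact p = 0.543) without the second-batch one, and 1.91 (exact p = 0.0857) without the second-batch 30DAF library. The ripening group was itself wide, since its 40DAF libraries had 0.603 and 0.451 reads of cme-miR156g/h per read of cme-miR156b and its 30DAF libraries 0.122 and 0.0294.

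The ripening stages were then compared with the early stages on log2(TPM + 5) with limma across all 71 sequences. This scale understates the change of low members. Of the 6 miR156 sequences, cme-miR156g/h and cme-miR156e rose past a Benjamini-Hochberg adjusted p of 0.05, that is 2 of 6, where 4.23% of all sequences tested were called higher. cme-miR156g/h had a log2 fold change of 2.73 (SE 0.59, limma adjusted p = 0.0494) and cme-miR156e one of 2.25 (SE 0.48, limma adjusted p = 0.0494). The other 4 did not pass. Their log2 fold changes were 2.22 (SE 0.57) for cme-miR156j, 2.07 (SE 0.64) for cme-miR156a/c/d/i, 1.55 (SE 0.42) for cme-miR156b and 1.24 (SE 0.43) for cme-miR156f, with limma adjusted p between 0.0892 and 0.133. With the batch as a replicate block cme-miR156j passed as well (limma adjusted p = 0.0265).

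All 6 sequences had an unadjusted limma p under 0.05 and a fold above 1.5, against 16.9% of all sequences that did so in that direction. In 4 of 6 (cme-miR156a/c/d/i, e, f and j) the ripening libraries lay wholly above the early ones in TPM, which 12.7% of all sequences showed. For cme-miR156e and f this rested on 2 and 1 reads at 30DAF of the second batch. With the libraries scaled on the sequences outside miR159, miR319 and miR396, none of the 4 separated in this way. The share of all sequences was not recomputed there. Before this rescaling, the median log2 fold change was 2.14 over the members and 0.08 over all sequences. In TPM without rescaling, sequences higher at every step in both batches made up 5.63% of the table and numbered 4. Of these, 3 were cme-miR156a/c/d/i, cme-miR156g/h and cme-miR156j, and the other was miR164c/d, whose family is known for targeting NAC factors. For cme-miR156g/h this holds for the TPM values as listed, since 2, 4 and 1 reads at 10, 20 and 30DAF of the second batch do not separate those stages.

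The 2 calls in this comparison depended on single libraries. Leaving out either 10DAF library left 1 member past the adjusted threshold, and leaving out any of the other 6 libraries left 0. When the libraries were scaled on the sequences outside the dominant miR159, miR319 and miR396 families, the median of all 71 sequences shifted by -0.61. Members then had a median of 1.04, which was 1.56 above that of all sequences (2.06 before scaling), and all 6 stayed above 0 with 0 called. By limma adjusted p, 7 of all 71 sequences were called in either direction with that scaling, against 4 before it. The count of members by unadjusted limma p fell from 6 to 2 with that scaling. The share of all sequences by unadjusted p was not recomputed there.

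Between the ends of the series, 40DAF against 10DAF, cme-miR156g/h, cme-miR156e and cme-miR156b rose, 3 of 6 members against 5.63% of all sequences by limma adjusted p. The log2 fold change was 4.69 (SE 0.83, limma adjusted p = 0.0341) for cme-miR156g/h, 3.26 (SE 0.68, limma adjusted p = 0.0425) for cme-miR156e and 2.73 (SE 0.60, limma adjusted p = 0.0425) for cme-miR156b. For cme-miR156j it was 3.17 (SE 0.81, limma adjusted p = 0.0761), and 0.0250 with the replicate block. cme-miR156a/c/d/i had 2.83 (SE 0.90) and cme-miR156f 1.89 (SE 0.61), both at a limma adjusted p of 0.154.

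By unadjusted limma p and a fold above 1.5 all 6 members were higher at 40DAF, as were 14.1% of all sequences. As folds of the stage means the increase was 6.62 for cme-miR156a/c/d/i, 6.79 for cme-miR156b, 8.87 for cme-miR156j and 14.9 for cme-miR156e. Both 10DAF libraries of cme-miR156f were at or under the floor. Its mean at 40DAF was 4.04-fold the mean floor at 10DAF, and 2.25-fold and 7.47-fold the floor in the first and second batch. Its counting intervals at 10 and 40DAF overlapped in both batches, so these folds are not strict lower bounds. The median log2 fold change of the members was 3.0, and that of all sequences was -0.06. From the stage means, with a member under the floor in both 10DAF libraries set to that floor, the members' median was 2.96. Leaving out the 10DAF library of the first batch left 2 members called, and leaving out any other single library left 0. With only the 4 libraries of these stages in the fit 0 members passed, and 4 had an unadjusted limma p under 0.05.

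Single steps between neighbouring stages gave no member past the adjusted threshold. The shares of all sequences given for these steps are those called higher in the limma fit. No such share is given for voom. From 10 to 20DAF, 0 of 6 members were called by limma adjusted p, with limma or with voom weights, and limma called 0% of all sequences. By unadjusted limma p and fold, 1 of 6 was higher, against 4.23% of all sequences. This was cme-miR156b, with a log2 fold change of 1.47 (limma adjusted p = 0.681), and voom gave 0. From 20 to 30DAF the count was 0 by limma and voom, both adjusted and unadjusted. In the limma fit 0% of all sequences were higher by adjusted p, and 4.23% by unadjusted p and fold. From 30 to 40DAF the count of members was 0 adjusted by limma and voom, and limma called 0% of all sequences. There 2 of 6 members were higher by unadjusted p and fold, against 4.23%, namely cme-miR156g/h with 3.60 (limma adjusted p = 0.278) and cme-miR156e with 2.36 (limma adjusted p = 0.415). voom also gave 2 members at an unadjusted p under 0.05 for that step.

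**Figure D5:**
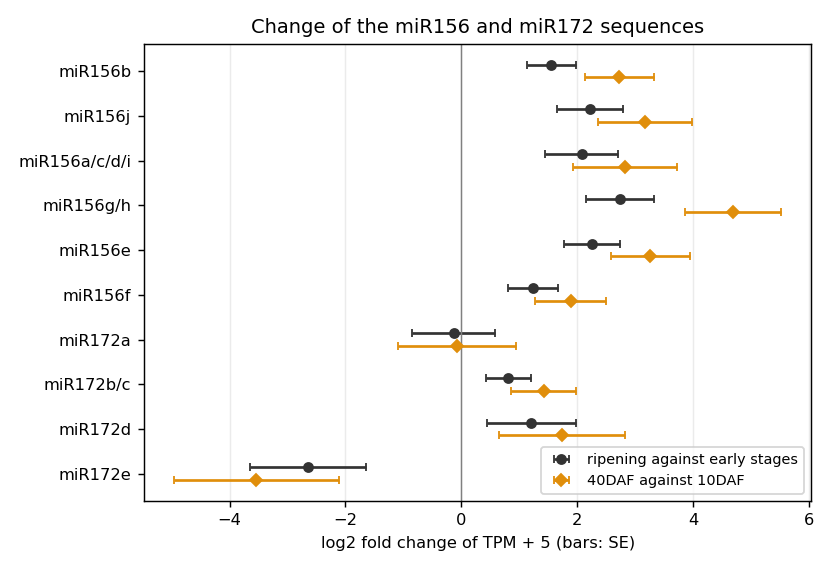
log2 fold change of TPM + 5 (x axis) with its SE from limma for the 6 miR156 and the 4 miR172 sequences, for ripening against early stages (circles) and 40DAF against 10DAF (diamonds). All miR156 points lie above 0, up to 4.69 for miR156g/h, and the miR172 points lie on both sides.

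The batches were compared with the stage as a covariate. By limma adjusted p, 0 of 6 members were called higher or lower in the second batch, against 1.41% of all sequences in each direction. By unadjusted limma p, 1 of 6 was lower and 0 were higher, against 14.1% and 4.23% of all sequences, so the share of members was close to the background. The member was cme-miR156j, at a log2 fold change of -1.11 (limma adjusted p = 0.20), and voom gave 0 adjusted and 1 unadjusted. An interaction term compared the early-to-ripening change of the first batch with that of the second. In this fit the 2 stages of a kind within a batch stood as replicates, so its spread holds the change between them. The SE of the term ran from 0.95 for cme-miR156a/c/d/i to 1.99 for cme-miR156g/h, so a count of 0 does not show that the batches were alike. The term gave 0 of 6 members by adjusted limma p, with 2.82% of all sequences called higher. By unadjusted limma p it also gave 0 of 6, against 19.7% of all sequences higher and 0% lower, and voom gave 0 by either. cme-miR156a/c/d/i, whose 10DAF levels differed most between the batches in fold, had a limma adjusted p of 0.473 in this test.

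The 4 miR172 sequences, which stand downstream of miR156 and SPL in Arabidopsis, did not move together. In the ripening and the 40DAF against 10DAF comparisons, 0 of 4 passed the adjusted threshold with limma or voom. By unadjusted limma p, miR172e was lower in both and miR172b/c higher at 40DAF, while voom gave 0. Of all sequences, 9.86% were lower in ripening by that limma p. At 40DAF against 10DAF 8.45% were lower and 14.1% higher. miR172e was at 85.8, 239, 12.2 and 8.58 TPM from 10 to 40DAF of the first batch, and at 543, 14.2, 19.0 and 22.2 TPM in the second. Its 10DAF libraries were high in both batches and the 20DAF library in the first only, and the log2 fold change in ripening was -2.64 (SE 1.0, limma adjusted p = 0.170). For miR172b/c the values were 108, 383, 394 and 232 TPM in first-batch libraries, against 137, 265, 343 and 482 TPM in the second. It was lowest at 10DAF in both batches, and between 40DAF and 10DAF its log2 fold change was 1.42 (limma adjusted p = 0.191). In ripening miR172a had a log2 fold change of -0.13 (limma adjusted p = 0.912) and miR172d one of 1.21 (limma adjusted p = 0.479).

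The sequence outside the family whose log2(TPM + 5) over the 8 libraries was most like that of the family total was miR164c/d, with a Pearson r of 0.941 and a Spearman rho of 0.976. It went from 581 to 9840 TPM between 10 and 40DAF in the first batch and from 87.7 to 10310 TPM in the second. Next by r were miR159a (r of 0.794, rho of 0.762) and miR2111a/b (r of 0.785, rho of 0.714). By rho alone miR169t, at 0.833, stood above both. Without the 2 libraries farthest from the median of the family total, r was 0.923 for miR164c/d, 0.835 for miR2111a/b and 0.392 for miR159a, so the last rested on those libraries. The 8 points share stages and batches, and these values are given as a description.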

How the data were processed

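The processed table holds the expression of conserved miRNAs in 8 libraries. Adapters, poor reads and reads outside the small RNA length range were taken out by the authors, as were matches to rRNA and tRNA, and the remainder was aligned with Bowtie to known plant miRNAs, allowing 1 mismatch. The deposited unit is TPM, for which the authors divided reads by the library's total and scaled the result, without regard to length. Names with one sequence carry equal values and were collapsed.

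The suffix of the library titles was read as the batch. Whole reads were recovered from the TPM step of each library, and 33 to 43 low values per library were all whole within 0.05 reads. Any 2 libraries had equal reads for 3 to 16 of the 71 sequences, so none was a copy of another. The log2(TPM + 5) values of 8 libraries entered a 4-stage model in limma 3.58.1 (R 4.3.3, trend). Adjusted p-values are Benjamini-Hochberg over 71 sequences. The replicates differ in batch, so p-values measure the spread between these libraries. Deviations of libraries with the same batch number correlated at 0.352 to 0.664 in 6 of 6 pairs of stages, so the batch was taken as pairing and fitted as a replicate block beside the model. The interaction model used early and ripening stages, batch and their product, with the stages of a kind within a batch as replicates. The fits were also run on simulated data with noise drawn independently for each library. That setting lacks the correlation between libraries of a batch, so it does not show how the unblocked fit behaves here. Other steps used Python 3.11.15, pandas 2.3.3 and scipy 1.17.1.

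Alternatives were a pseudocount of 1 or 20 TPM, a mean of at least 10 TPM, 2 rescalings, every name counted, no trend, voom on recovered reads, the block, the stages compared alone, and leaving out each library. The named sequences were all members, the miR172 sequences and the 3 most alike non-members. Members and lists were chosen with earlier results of these data known. RefSeq symbols matched 7 of the 10 precursors, and no coordinates were used. Target genes and the melon-specific miRNAs were not analysed here.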

Additional observations from a re-analysis of the deposited data

How the results depend on the processing

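The calls, the log2 fold changes of the members, the family fold and the ratio of cme-miR156g/h to cme-miR156b were recomputed under the alternatives chosen for each, one at a time, and no called value changed sign. Shares, read ratios and likeness were not recomputed. The log2 fold changes of all 6 members towards ripening stayed above 0 under every one of the 18 settings run, from 0.37 for cme-miR156b to 3.57 for cme-miR156g/h. The count of members past the limma adjusted threshold in ripening (2) became 0 with a pseudocount of 1 TPM and 0 with scaling outside the dominant families, and ran from 0 to 1 over the libraries left out. With the batch as a replicate block it was 3. Median-ratio scaling also gave 2, but cme-miR156e was lost (limma adjusted p = 0.0731) and cme-miR156j gained (0.0495). The count at 40DAF against 10DAF (3) became 1 with the scaling outside the dominant families. It was also 1 with voom on recovered reads, the member being cme-miR156g/h in both cases. With only the stages compared it was 0. Median-ratio scaling lost cme-miR156e and gained cme-miR156j, a pseudocount of 1 TPM lost cme-miR156e, and counting every name lost cme-miR156b. The replicate block gave 4, and changed no other member's call in either comparison than that of cme-miR156j. The count at 40DAF against 30DAF (0) became 2 without the mean-variance trend. The family fold of 4.23 became 1.95 with the scaling outside the dominant families and ran from 3.15 to 5.40 over the libraries left out. The ratio difference of 1.18 became 0.49 with a pseudocount of 20 TPM and ran from 0.66 to 1.91 over the libraries left out. The causes were not tested. With 2 libraries a stage, a single library decides most adjusted calls, and with a TPM total of 105077 reads, values of the second-batch 30DAF library at or under 28.6 TPM stand for 3 reads or fewer.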
